A study of Mus musculus with 8 samples.

Results

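The cytosolic ribosomal protein genes encode the protein part of the ribosome, the particle that translates messenger RNA. They were chosen by symbol from the deposited value table: Rpl or Rps followed by digits, with an optional a, x, y or l, plus Rplp0, Rplp1, Rplp2 and Rpsa, and without symbols that carry -ps or -rs. Each gene was represented by its probe of highest mean among the probes that the platform's annotation gives a single symbol. The rule found 59 genes among 19938, of which 37 carry a large subunit (Rpl) symbol and 22 a small subunit (Rps) symbol.

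The values come from primordial germ cells, the embryonic precursors of sperm and eggs, at embryonic day 9.5, when they migrate toward the future gonads. There were 4 mutant embryos, homozygous for the Y324C change in the receptor tyrosine kinase Ror2 (Ror2Y324C/Y324C), and 4 WT embryos (Ror2+/+), with 1 microarray for each embryo. Parents were heterozygous for Ror2Y324C, the strain background was mixed, and the father carried 2 copies of the Oct4-ΔPE reporter, so mutant and WT embryos alike inherited it. The mutants had 24, 22 to 23, 23 and 21 to 22 somites (mean 22.75), and the WT embryos had 25, 25, 22 and 21 (mean 23.25). Cells came from trypsin-digested embryo posteriors and were sorted on GFP, so every cell of the body of a mutant embryo, not only its germ cells, lacked normal Ror2, and an effect inside germ cells cannot be told apart from one of their surroundings.

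A ribosome has a large subunit, which joins amino acids, and a small subunit, which reads the message, and each holds a single copy of most of its proteins. The proteins are made in step with ribosomal RNA, and their messages begin with a pyrimidine-rich stretch through which the kinase mTOR tunes how strongly they are translated. Dividing embryonic cells, germ cells among them, devote a large part of their messages to these genes.

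The coverage of the ribosome by these probes was partial. Of 79 standard ribosomal protein genes listed by hand, 53 were members (33 of 47 for the large and 20 of 32 for the small subunit). Of the 26 others, 16 had only probes that the annotation gives several symbols, 8 had no probe in it, and 2 (Fau and Rps3a, annotated as Rps3a1) were measured under symbols outside the rule. The 6 members that are not on the standard list are Rpl3l, Rpl10l, Rpl39l, Rpl32l, Rps4l and Rps27l. Ribosomal protein genes have many near-identical processed copies in the mouse genome, so a probe may also report such copies, and its value is uncertain in that sense.

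The annotated start sites were searched for this stretch and shown because the family's messages are known to be controlled through it. RefSeq windows around the annotated starts (GRCm38.p6) were found for 47 of the 59 genes. Within 50 bases on either side of the start, the pyrimidine stretch CTTTCC, read on the gene's strand, occurred in 12 of the 47 genes (25.5%) and in 5.43% of 27025 genes with such a window. The following 6 stretches hold it, in capitals, and belong to genes whose values are described below.
Rpl38, chr11:114668530-114668629, plus strand: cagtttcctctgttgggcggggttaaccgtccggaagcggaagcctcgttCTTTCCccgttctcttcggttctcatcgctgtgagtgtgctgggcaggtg
Rps10, chr17:27635195-27635294, minus strand: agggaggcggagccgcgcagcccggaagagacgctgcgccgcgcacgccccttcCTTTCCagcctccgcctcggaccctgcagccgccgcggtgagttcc
Rpl26, chr11:68901516-68901615, plus strand: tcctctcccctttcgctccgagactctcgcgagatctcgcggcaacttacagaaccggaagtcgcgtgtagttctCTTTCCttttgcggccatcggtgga
Rpl19, the second of 2 annotated starts, chr11:98026874-98026973, plus strand: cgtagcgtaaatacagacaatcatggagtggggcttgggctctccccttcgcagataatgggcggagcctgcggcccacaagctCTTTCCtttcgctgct
Rpl4, chr9:64173337-64173436, plus strand: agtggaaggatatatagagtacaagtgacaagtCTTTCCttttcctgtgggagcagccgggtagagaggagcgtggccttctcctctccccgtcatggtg
Rpl39l, chr16:10170178-10170277, plus strand: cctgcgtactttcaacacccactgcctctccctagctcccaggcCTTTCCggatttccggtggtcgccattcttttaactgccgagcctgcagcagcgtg
In Rpl38 the stretch begins at the annotated first base, and in Rps10 at base 5 after the start. In Rpl26 and Rpl19 it lies further downstream, and in Rpl4 and Rpl39l it begins before the annotated start. For comparison, the windows of Rplp0 and Rpl12 hold no exact CTTTCC. Other pyrimidine-rich stretches were not searched, so this does not show that their messages lack one.
Rplp0, chr5:115559417-115559516, plus strand: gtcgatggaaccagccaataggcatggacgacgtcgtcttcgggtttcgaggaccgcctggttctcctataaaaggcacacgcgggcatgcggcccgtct
Rpl12, chr2:32961662-32961761, plus strand: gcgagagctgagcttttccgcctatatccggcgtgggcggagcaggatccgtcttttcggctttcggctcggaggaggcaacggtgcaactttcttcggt

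The ETS-family motif CCGGAAG, searched on both strands from 250 bases before to 50 after the start, occurred in 18 of the 47 genes (38.3%) and in 9.93% of all genes with a window. It can be read in the Rpl38, Rps10 and Rpl26 sequences above, and 5 genes hold both motifs in a single window. AAGATGG, searched in the same way as a core of YY1 sites, occurred in 4 genes (8.51%, against 7.28% of all). The TATA box TATAAA, searched like CTTTCC, also occurred in 4 (8.51%, against 4.05%). The median of the mutant minus WT differences described below was 0.09 over the 12 genes with CTTTCC and 0.08 over the 35 without it. The same medians were 0.02 with CCGGAAG and 0.10 without it. A match is a run of letters and not a measured site.

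Ribosomal protein probes gave bright signals in the sorted germ cells and varied little between embryos. The mean over 8 arrays was above 12 on the log2 scale for 38 of the 59 genes, close to the brightest probe of each array, which lay between 13.65 and 13.83. The SD over the 8 arrays had a median of 0.10, against 0.24 over all genes, and was under the all-gene median for 53 of the 59 (89.8%). How far bright probes are compressed at the top of the scale was not tested. The steadiest gene was Rpl10a, a large subunit protein, with 12.68, 12.64, 12.65 and 12.62 in the mutants and 12.63, 12.65, 12.63 and 12.66 in WT (SD over 8 arrays 0.02). Rpl4, whose loops line the exit tunnel of the new protein, and Rpsa, a small subunit protein also known as a laminin receptor, each had an SD of 0.04. At the other end stood Rpl39l (0.64), Rpl10l (0.50) and Rpl12 (0.48). Their probes were dim for the family, with means of 5.45, 5.32 and 6.61, and whether these lie above background was not tested.

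The arrays themselves carried the sorted cell type. The germ cell list (14 genes, among them Pou5f1, Dppa3 and Kit) averaged between 9.97 and 10.06 in the mutants and between 9.81 and 10.09 in WT. Background cannot be assessed from these values, so no marker can be called absent. The third WT array had the narrowest spread over genes (SD 1.77, against 1.82 to 1.95 on the other arrays). It also had the lowest germ cell mean (9.81) and the highest means of the primitive erythroid list (5.40, against 4.76 to 5.12 elsewhere), the macrophage list (5.11, against 4.57 to 4.94) and the trunk mesenchyme list (5.60, against 5.14 to 5.42). It was not the highest for the endothelium list (5.47, against 5.53 in mutant 3) or the hindgut endoderm list (6.67, against 6.98 in WT 4). On WT 3, 5 of 9 erythroid, 6 of 12 macrophage and 2 of 9 trunk mesenchyme genes had their highest value of the 8 arrays, against 24.2% of all genes. So did 1 of 8 endothelium and 2 of 9 hindgut endoderm genes. On the same array 6 of 14 germ cell genes had their lowest value, against 12.1% of all genes. Xist, the RNA that coats an inactive X chromosome, was high in mutant 4 (6.31) and WT 3 (7.07) and between 3.50 and 4.11 on the other 6 arrays. The Y chromosome genes Eif2s3y, Uty and Kdm5d were lowest on these same arrays, which is the pattern of female embryos. Eif2s3y had 2.87 in mutant 4 and 3.17 in WT 3, against 7.86 to 8.75 elsewhere. The germ cell markers could not show whether fewer germ cells or less RNA per germ cell lay behind a lower value, here and below.

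No ribosomal protein gene passed the test between Ror2 mutant and WT germ cells. With limma and Benjamini-Hochberg adjustment over 19938 genes, 0 of the 59 passed an adjusted p of 0.05, and 0 of all genes did (0%). At an unadjusted p under 0.05 there were also 0 of the 59, against 4.68% of all genes (2.72% higher and 1.96% lower in mutants), and the smallest unadjusted p among the 59 was 0.0823, for Rplp0. This count depended on how limma moderates the spread of a gene. When the moderation followed the level of the genes (trend and robust), 6 of the 59 had such a p, against 955 of the 19938 genes. Again 0 passed the adjustment. The 95% intervals were narrow: for 49 of the 59 genes (83.1%, against 45.9% of all genes) the interval of mutant minus WT lay within 0.5 on the log2 scale on either side of 0, a 1.41-fold difference. For 58 of them (98.3%, against 93.5% of all genes) it lay within 1, a difference of 2-fold, and Rpl39l was the exception.

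On the deposited scale, most differences were small and above 0 in both subunits. The difference was above 0 for 47 of the 59 genes (79.7%), against 44.6% of all genes, with a median of 0.08 against -0.02 over all genes. It ran from -0.32 for Rpl10l to 0.57 for Rpl39l, and the median SE of a gene was 0.12. Among the large subunit genes 29 of 37 lay above 0 (median 0.10), and among the small subunit genes 18 of 22 (median 0.05). Mutant and WT values did not overlap for 4 genes, which are named here after their values were seen. All mutant values lay above all WT values for Rpl23, Rpl28 and Rps28, against 1.08% of all genes, and below them for the chosen probe of Rpl27a, against 1.44% of all genes. The adjusted p of these 4 genes ran from 0.973 to 0.977 (limma).

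**Figure D1:**
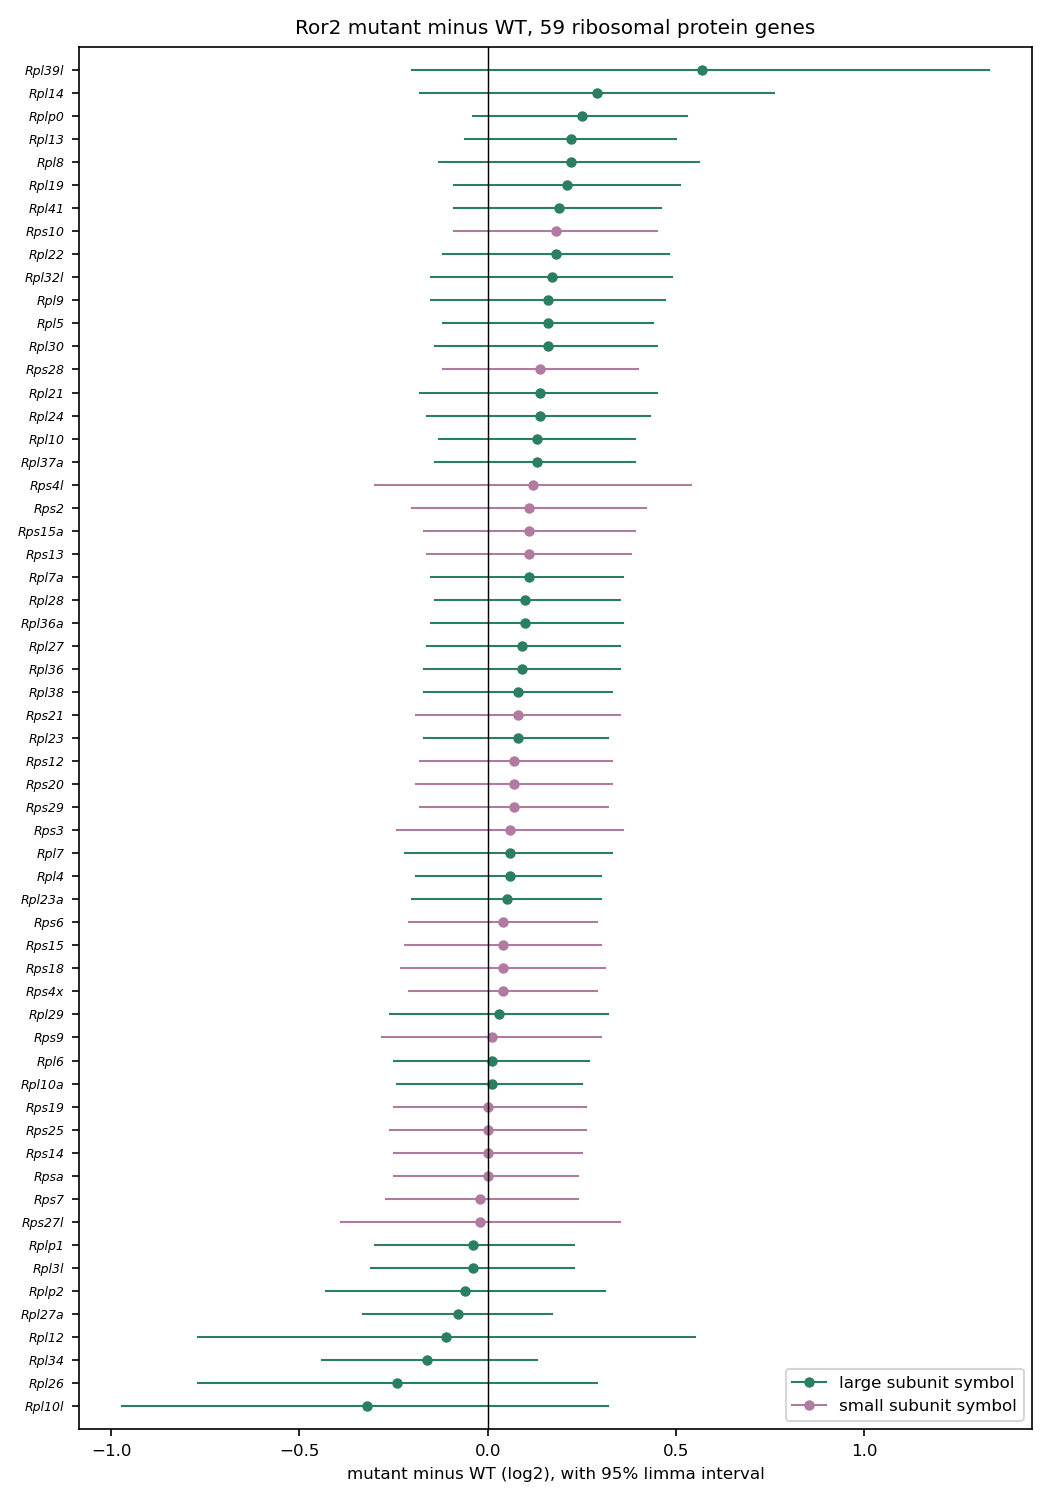
Mutant minus WT difference of each of the 59 ribosomal protein genes on the log2 scale (horizontal axis), with its 95% limma interval, ordered by size. Large subunit symbols are green and small subunit symbols purple. All 59 intervals include 0, 47 of the points lie above it, and Rpl39l, Rpl10l, Rpl12 and Rpl26 have wide intervals.

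This share moved with the scaling of the arrays and with a single WT embryo. After quantile normalization 34 of the 59 genes (57.6%) lay above 0, against 52.3% of all genes, with a median of 0.03. The small subunit genes then had 10 of 22 above 0 and a median of -0.02, so their direction turned, while 24 of the 37 large subunit genes lay above 0, with a median of 0.04. After centring each array on its median, 54 (91.5%) lay above 0, against 58.2% of all genes, with a median of 0.14. Without WT 3, 42 (71.2%) lay above 0, against 50.2% of all genes, and the small subunit count was 13 of 22 with a median of 0.01. Among genes of above-median level the share was 82.1% of 56 members against 57.4% of all.

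**Figure D2:**
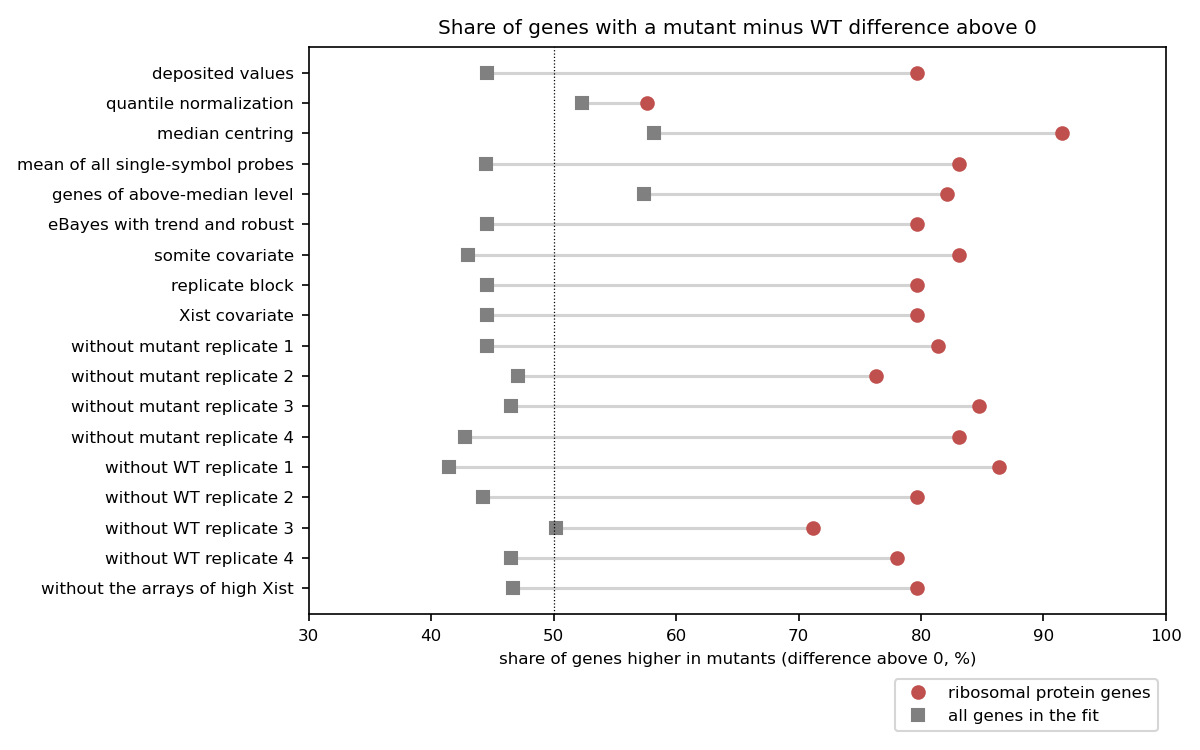
Share of genes with a mutant minus WT difference above 0, in percent (horizontal axis), for ribosomal protein genes (red circles) and all genes in the same fit (grey squares), under each processing setting or with an array left out (rows). The red circle lies to the right of the grey square in every row, nearest to it after quantile normalization (57.6% and 52.3%).

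On the deposited scale many of the genes shared the array of their lowest or highest value. WT 3 had the lowest of the 8 values for 33 of the 59 genes (55.9%), against 12.1% of all genes and 20.7% of genes of above-median level. On the deposited scale mutant 2 had the highest value for 23 (39.0%), against 8.93% of all genes. WT 1 was lowest for 0 of them, against 18.3% of all genes. After quantile normalization the count for WT 3 was 18 (30.5%, against 13.5% of all genes) and after median centring it was 46 (78%, against 20.8%). WT 3 was highest for 2 genes on the deposited scale (3.39%, against 24.2% of all genes). After quantile normalization it was highest for 11 (18.6%, against 18.7%). The array that was most often highest changed with the scaling. After quantile normalization mutant 1 led with 13 genes (22%, against 10.9% of all genes) and mutant 2 had 9 (15.3%, against 8.99%). After median centring mutant 3 led with 23 (39%, against 16.9%) and mutant 2 had 16 (27.1%, against 11.6%). The part that the narrower spread, the lower germ cell mean and the higher erythroid, macrophage and trunk mesenchyme means of WT 3 have in these counts was not tested.

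The mean over the 59 genes was 11.52, 11.51, 11.45 and 11.41 in the mutants and 11.48, 11.36, 11.30 and 11.46 in WT. The mutant and WT values overlapped, with WT 2 and WT 3 below every mutant. The means were 11.47 ± 0.05 in mutants and 11.40 ± 0.08 in WT (SD, n = 4 each), a difference of 0.07, and of 0.04 without WT 3.

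**Figure D3:**
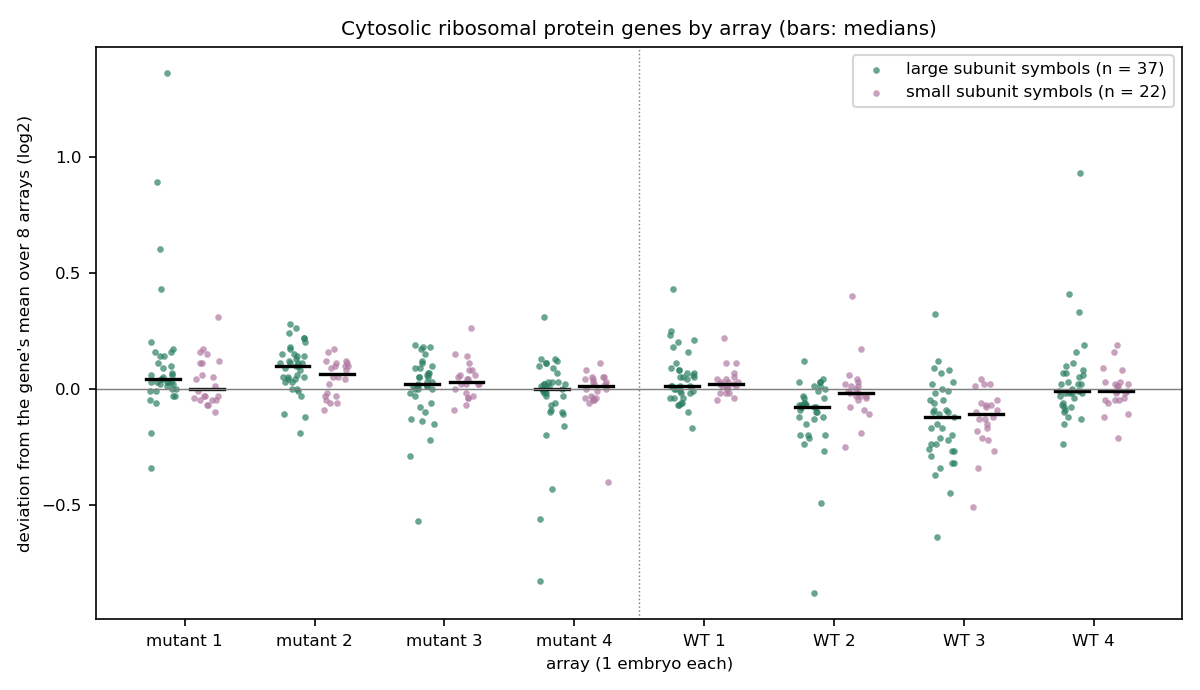
Deviation of each ribosomal protein gene from its own mean over the 8 arrays, on the log2 scale (vertical axis), for the 4 mutant and 4 WT arrays (horizontal axis). Points are genes, green for large and purple for small subunit symbols, and black bars are medians. The medians of mutant 2 are the highest (0.10 in the large and 0.07 in the small subunit), and those of WT 3 the lowest (-0.12 and -0.11).

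The large subunit genes averaged 11.05 ± 0.07 in mutants and 10.97 ± 0.10 in WT, and the small subunit genes averaged 12.19 ± 0.03 in mutants and 12.13 ± 0.07 in WT. Because probes differ in brightness, only the change of the difference between the subunits can be read, and not its size. Large minus small was -1.07, -1.11, -1.19 and -1.18 in the mutants and -1.13, -1.25, -1.16 and -1.11 in WT. These values overlapped, and their means were -1.14 ± 0.06 in mutants and -1.16 ± 0.06 in WT. The difference of 0.03 was smaller than the spread between embryos and ran from 0.00 to 0.05 over the settings tried.

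The stalk of the large subunit, which recruits elongation factors, is built from Rplp0, Rplp1 and Rplp2. Rplp0, its base, had 12.61, 12.49, 12.63 and 12.57 in the mutants and 12.54, 12.37, 12.19 and 12.21 in WT. Only WT 1 reached the mutant values, and the difference of 0.25 (95% interval -0.04 to 0.53) had the smallest p of all members, with an adjusted p of 0.973 (limma). Its second probe gave a difference of 0.05, and the mean of both probes 0.15. Rplp1 averaged 13.33 ± 0.10 in mutants and 13.37 ± 0.07 in WT, and Rplp2 averaged 7.44 ± 0.14 in mutants and 7.50 ± 0.30 in WT. The differences of Rplp1 (-0.04) and Rplp2 (-0.06) became 0.03 and 0.00 under median centring, where both were above 0 before rounding. Without WT 3 they were -0.01 and -0.18, and without WT 4 that of Rplp2 was 0.04. Rpl12, which binds near the foot of the stalk, was read from 1 dim probe, while 8 other probes of it carry several symbols. It spread more among the mutants, with 7.49, 6.64, 6.03 and 6.05, than in WT, with 7.04, 6.50, 6.52 and 6.59. Its groups overlapped widely (difference -0.11, interval -0.77 to 0.55), and the sign turned without WT 1 (0.02), mutant 3 (0.06) or mutant 4 (0.06), and the difference was -0.42 without mutant 1.

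Among the other large subunit genes, Rpl13 averaged 12.26 ± 0.05 in mutants and 12.04 ± 0.17 in WT, a difference of 0.22 (0.14 after quantile normalization) that its 9 probes gave as 0.22 to 0.36. Rpl19 holds the pyrimidine stretch downstream of its second annotated start only. It had 12.34, 12.33, 12.34 and 12.18 in the mutants and 12.27, 12.13, 11.82 and 12.12 in WT. The difference was 0.21, and 0.12 without WT 3, which is the lowest of its 8 arrays. Rpl41, which encodes a very short basic protein, differed by 0.19 (interval -0.09 to 0.46), and its 3 probes held identical values and count as 1. On the lower side, Rpl34 had 9.22, 9.53, 9.59 and 9.59 in the mutants and 9.63, 9.57, 9.68 and 9.67 in WT. Mutant 1 stood below the other mutants, and the difference was -0.16 (interval -0.44 to 0.13), and -0.07 without mutant 1. Rpl26, known in mammals for promoting translation of p53, had 11.50, 10.88, 10.78 and 10.64 in the mutants and 11.31, 10.57, 11.38 and 11.47 in WT. A single array of each group lay with the other group, and the difference was -0.24 (interval -0.77 to 0.29), and between -0.44 and -0.13 without single arrays. Rpl27a had 12.46, 12.48, 12.46 and 12.40 in the mutants, all below the WT values of 12.52, 12.51, 12.57 and 12.50. That difference was -0.08, within limma's moderated SE of 0.11 (SD 0.04 in mutants and 0.03 in WT). It held for this probe alone: 8 of the 9 Rpl27a probes lay above 0, up to 0.25, and the mean of all 9 gave 0.07.

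The 3 genes with all mutant values on top differed by as little. Rpl23 had 12.56, 12.64, 12.61 and 12.57 in the mutants and 12.55, 12.48, 12.50 and 12.54 in WT (difference 0.08). Rpl28 had 12.95, 12.91, 12.96 and 12.88 in the mutants and 12.87, 12.80, 12.75 and 12.84 in WT (difference 0.10). Rps28, a small subunit protein, had 13.03, 13.09, 13.10 and 13.02 in the mutants and 12.97, 12.88, 12.82 and 13.02 in WT, where the top WT value met the lowest mutant value at 2 decimals (difference 0.14). These differences were close to limma's SE of 0.11 to 0.12, with unadjusted p values from 0.256 to 0.5 (limma). That SE is moderated by the spread of all genes, and the SD within a group was only 0.03 to 0.09 for these 3 genes.

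Members known from mouse genetics differed by 0.18 at most. Rpl38, whose loss in mice disturbs the patterning of the axial skeleton and the translation of some Hox messages, had 12.44, 12.52, 12.44 and 12.41 in the mutants and 12.42, 12.34, 12.31 and 12.40 in WT. These values overlapped, with a difference of 0.08 (interval -0.17 to 0.33). Rpl24, the gene altered in the belly spot and tail mouse, averaged 11.96 ± 0.15 in mutants and 11.82 ± 0.12 in WT (difference 0.14, interval -0.16 to 0.43). That difference was 0.08 without WT 3, 0.06 without mutant 2 and 0.05 after quantile normalization. Rpl22, which is dispensable for most mouse tissues but needed for T cell development, averaged 9.73 ± 0.20 in mutants and 9.55 ± 0.07 in WT (difference 0.18, interval -0.12 to 0.48, and 0.28 without mutant 4).

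Among the small subunit genes, Rps10, at the entry of the message, had the smallest p (0.163 before and 0.973 after adjustment, limma). It had 12.50, 12.49, 12.54 and 12.40 in the mutants and 12.41, 12.40, 12.22 and 12.19 in WT. WT 1 and WT 2 met the lowest mutant value, and the difference was 0.18. Rps6, which the kinase downstream of mTOR phosphorylates, averaged 12.62 ± 0.04 in mutants and 12.58 ± 0.03 in WT, and its difference of 0.04 was -0.01 after quantile normalization. Rpsa averaged 12.93 ± 0.04 in mutants and 12.93 ± 0.03 in WT (interval -0.25 to 0.24).

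The mouse X chromosome carries 3 members, Rpl10, Rps4x and Rpl36a. Rpl10, which joins the large subunit late in its assembly, had 12.14, 12.09, 12.21 and 11.97 in the mutants and 11.99, 11.91, 12.03 and 11.94 in WT (difference 0.13, interval -0.13 to 0.39). Rps4x had 12.44, 12.49, 12.52 and 12.51 in the mutants and 12.49, 12.45, 12.38 and 12.48 in WT. Its difference of 0.04 was -0.02 after quantile normalization. Mutant 4 and WT 3, the arrays of high Xist, held the lowest mutant value of Rpl10 and the highest WT value of it.

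Of 9 human Diamond-Blackfan anemia genes, in which loss of a ribosomal protein gene copy impairs red cell formation, 4 were measured by single-symbol probes. Rpl5, which with 5S RNA binds the p53 inhibitor Mdm2, differed by 0.16 (interval -0.12 to 0.44, and 0.10 without WT 3), and Rps10 by 0.18 as above. Rps19 and Rps7 differed by 0.00 and -0.02, and both signs depended on the scaling. The median of the 4 was 0.08, and 0 passed the test.

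On the deposited scale, 2 paralogs with restricted expression had the extreme differences of the family, and both values rested on single arrays. Rpl39l, the copy of Rpl39 known for its abundance in male germ cells after birth, had 6.81, 5.60, 5.23 and 5.29 in the mutants and 5.61, 4.56, 5.12 and 5.37 in WT. Mutant 1 stood above all others and the rest overlapped, so the difference of 0.57 had an SE of 0.34 and an interval of -0.20 to 1.33. It was 0.21 without mutant 1, below that of Rplp0 in all arrays, and 0.37 without WT 2. Rpl10l, which replaces Rpl10 in male meiosis, when the X chromosome is silenced, had 5.37, 5.35, 5.42 and 4.49 in the mutants and 5.54, 5.05, 5.08 and 6.25 in WT. Its difference of -0.32 had an SE of 0.29, and was -0.10 without mutant 4 and -0.07 without WT 4. Rpl3l, the muscle copy of Rpl3, averaged 4.83 ± 0.09 in mutants and 4.87 ± 0.09 in WT, and its difference of -0.04 was 0.04 after quantile normalization and 0.02 after centring. Whether these dim probes lie above background was not tested. Rps27l, a p53-responsive copy of Rps27, averaged 11.17 ± 0.30 in mutants and 11.19 ± 0.15 in WT. Rps4l, annotated as a transcribed pseudogene, averaged 11.11 ± 0.16 in mutants and 10.99 ± 0.38 in WT, and its difference of 0.12 was -0.03 without WT 3. Overall 2 of these 5 paralogs lay above 0, with a median of -0.02.

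The naming rule took the lowest differences, so the 26 members outside it, 13 of each subunit, had differences from 0.00 to 0.22 by that choice. Of those 26, 25 lay above 0, and of the 33 named members 22 did, which together make the 47 given above. The 59 genes had 215 single-symbol probes, up to 14 for Rps12, of which 197 lay above 0, and the probes of 5 genes were of mixed sign. The probe chosen moved some differences by more than their usual size: the probes of Rps9 gave 0.01 to 0.24, those of Rps2 0.11 to 0.41 and those of Rpl27a -0.08 to 0.25. With the mean of all probes of a gene, 83.1% of members lay above 0.

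Somite number, which stages embryos of this age, was fitted together with genotype. For the slope per somite, 0 of the 59 genes passed an adjusted p of 0.05 (limma), and 0 of all genes did (0%). At an unadjusted p under 0.05 there were 0 members, against 5.02% of all genes with a positive and 4.72% with a negative slope. With trend and robust moderation there were 4 members, and 1940 of all genes. The slope was above 0 for 39 of the 59 genes (66.1%), against 40.5% of all genes, of which 59.5% had a slope below 0. Among genes of above-median level it was above 0 for 38 of 56 members, against 58.6% of all. The median slope was 0.00 per somite, against -0.02 over all genes. For 55 of the 59 genes (93.2%, against 76.6% of all genes) the 95% interval of the slope lay within 0.25 per somite on either side of 0. The large subunit had 22 of 37 positive slopes (median 0.00) and the small subunit 17 of 22 (median 0.01). The count of positive slopes was 25 without the 2 arrays of high Xist, 26 without WT 1, 27 without WT 3 and 49 without WT 4, so it depended on which embryos were included. It was 31 after quantile normalization (42.3% of all genes were then positive) and 52 after median centring (52.5%).

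Among the positive slopes, Rps27l, with 0.11 ± 0.05 per somite (SE), had the smallest unadjusted p (0.0584, limma, adjusted p 0.524). Among the mutants it had 10.78 at 21 to 22 somites, 11.29 at 22 to 23, 11.11 at 23 and 11.49 at 24. Among WT it had 11.07 at 21 somites, 11.04 at 22, and 11.29 and 11.34 at 25. The youngest embryos thus had the lowest or nearly the lowest value in both genotypes. Rps4l (0.12 ± 0.06), Rpl14 (0.11 ± 0.07), Rpl12 (0.15 ± 0.10) and Rplp0 (0.06 ± 0.04) followed. Rpl14, a large subunit protein, had 10.91, 10.46, 10.23 and 10.21 in the mutants and 10.49, 10.20, 9.67 and 10.28 in WT, where WT 3, at 22 somites, had the lowest value. The negative slopes of smallest p were those of Rpl29 (-0.06 ± 0.04), Rpl34 (-0.04 ± 0.04), Rpl21 (-0.04 ± 0.05), Rps15a (-0.03 ± 0.04) and Rpl32l (-0.03 ± 0.05). None of these 10 passed the adjustment.

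**Figure D4:**
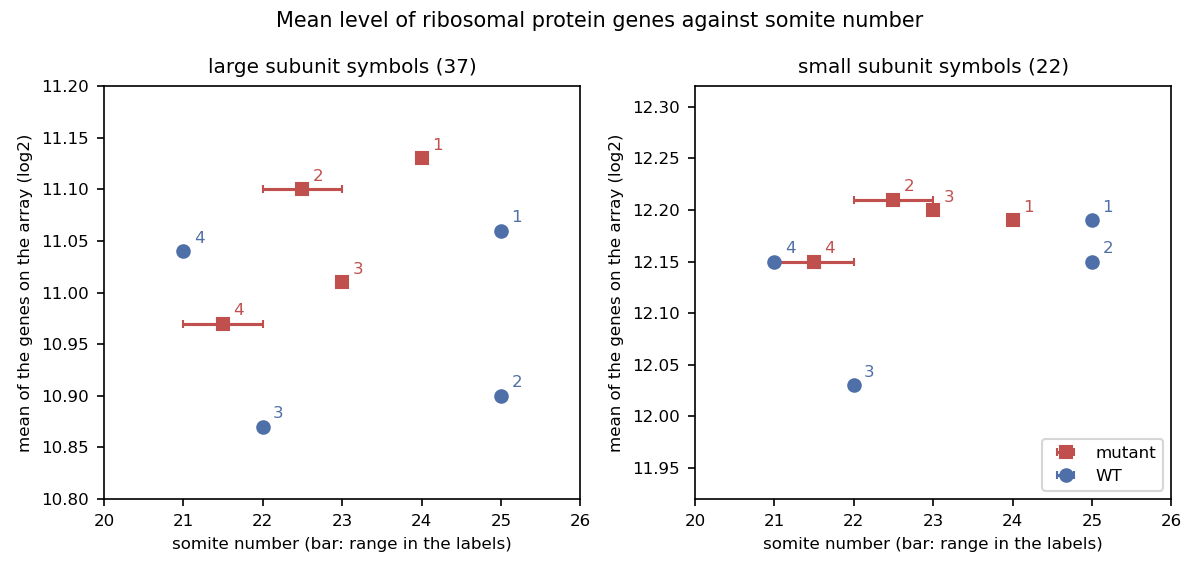
Mean log2 value of the 37 large subunit genes (left panel) and the 22 small subunit genes (right panel) on each array (vertical axis, not starting at 0) against somite number (horizontal axis). Mutants are red squares and WT are blue circles, the numbers are the replicates, and the bars are somite ranges in the labels. WT 3, at 22 somites, is the lowest point of both panels (10.87 and 12.03), and WT 4, with the fewest somites, is not low (11.04 and 12.15).

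Genes that build or regulate the ribosome were read from lists written by hand, and 0 genes passed the test in any of them. Of 77 measured ribosome biogenesis genes, 47 lay above 0 (median 0.05), with unadjusted p values under 0.05 for 3 genes higher and 1 lower in mutants. The share above 0 was 61%, against 44.6% of all genes and 57.4% of genes of above-median level. Over all genes 4.68% had such a p, so the count of low p values was near the background. The mean of the list differed by 0.06, or by -0.01 without WT 3. Tcof1, which supports ribosomal RNA transcription, had 8.43, 8.07, 8.30 and 7.97 in the mutants and 8.14, 7.36, 7.85 and 7.40 in WT, where WT 1 lay among the mutants (difference 0.51 ± 0.20, SE). Pes1, a large subunit assembly factor, differed by 0.45 ± 0.18, and by 0.29 without WT 4. Nop56, a core protein of box C/D particles that methylate ribosomal RNA, had 10.27, 10.29, 10.49 and 10.20 in the mutants, all below the WT values of 10.83, 10.64, 10.55 and 10.79. Its difference was -0.39 ± 0.13, and Nop16, another assembly factor, differed by -0.48 ± 0.23, and by -0.27 without mutant 1. With somite number, 62 of the 77 slopes were positive, 9 of them at an unadjusted p under 0.05, beside 2 negative ones. Slopes were positive for 40.5% of all genes and for 58.6% of genes of above-median level. Over all genes 5.02% were positive and 4.72% negative at such a p.

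Of 31 measured translation factors, 22 (71%) lay above 0 (median 0.05), against 44.6% of all genes and 57.4% of genes of above-median level. At an unadjusted p under 0.05 there was 1 higher gene, against 2.72% of all genes. That gene was Eif4b, a helper of the scanning helicase, with 10.16, 10.46, 10.40 and 10.14 in the mutants, all above the WT values of 10.05, 10.10, 9.67 and 9.77 (difference 0.39 ± 0.15). Eef1b2, an exchange factor in elongation, differed by 0.28 ± 0.15 (0.17 without WT 3), Eif2s2 by -0.08 ± 0.12 and Eef1d by -0.09 ± 0.15.

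Of 23 measured regulators of ribosomal protein synthesis, 12 (52.2%) lay above 0 (median 0.03). The share was 44.6% over all genes and 57.4% over genes of above-median level. An unadjusted p under 0.05 belonged to 4 higher genes and 1 lower, against 2.72% and 1.96% of all genes. Pdcd4, an inhibitor of the scanning helicase that S6 kinase removes, had 9.18, 9.31, 9.21 and 9.31 in the mutants, all above the WT values of 8.67, 8.46, 7.62 and 9.00. The difference was 0.82 ± 0.25, and 0.54 without WT 3, whose value was the lowest. Mtor differed by 0.37 ± 0.14, the upstream kinase gene Akt1 by -0.48 ± 0.19 and Cnbp, a nucleic acid binding protein, by -0.30 ± 0.18 (-0.11 without WT 4). The adjusted p of each of these named genes was 0.973, or 0.977 for Eif2s2 and Eef1d (limma). Outside the symbol rule, Rpl7l1, Rps3a1 and Fau differed by 0.30, 0.21 and 0.19, and without WT 3 by 0.04, -0.02 and 0.12.

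Several ribosomal protein genes hold small nucleolar RNAs in their introns, which guide the modification of RNA and are cut from the host transcript. Of 19 such RNAs with a probe whose position lies inside a gene of the symbol rule, 11 lay inside a member, and 2 of the 11 had differences above 0. Snord42b, inside Rpl23a, had 5.31, 6.41, 5.95 and 5.05 in the mutants, all below the WT values of 6.63, 6.69, 8.20 and 7.13. The difference was -1.48 ± 0.38 (unadjusted p 0.00258, adjusted p 0.973, limma), while the host differed by 0.05. Snora3, inside Rpl27a, had 9.50, 9.49, 8.59 and 7.96 in the mutants and 10.37, 10.33, 10.10 and 9.12 in WT, where only WT 4 lay among the mutants (difference -1.09 ± 0.38, host -0.08). Snora33 in Rps12 differed by -0.73 ± 0.46, and by -0.20 without mutant 4. Snora21 in Rpl23 differed by 0.81 ± 0.52, between 0.47 and 1.34 without single arrays. Snord42a in Rpl23a differed by -0.59 ± 0.41, between -0.90 and -0.28 without single arrays, and Snord15b in Rps3 by -0.50 ± 0.45, between -0.83 and -0.19. The difference between a small nucleolar RNA and its host was not itself tested, and no member that held one differed by more than 0.13 in either direction.

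**Figure D5:**
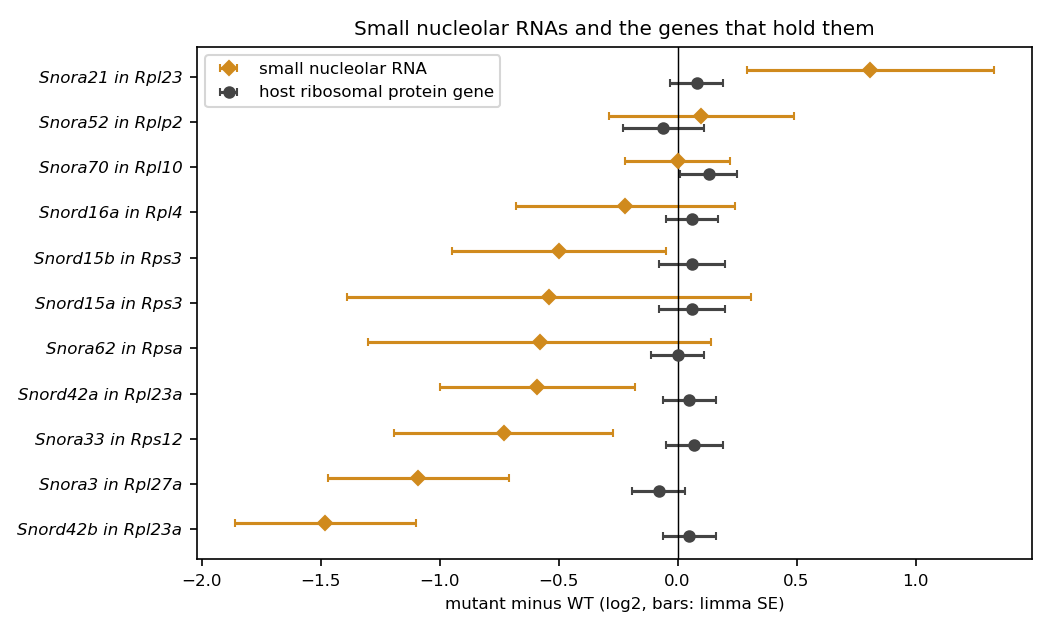
Mutant minus WT difference on the log2 scale with its limma SE (horizontal axis) for the 11 small nucleolar RNAs (orange diamonds) and the ribosomal protein gene that holds each (grey circles). The host points lie between -0.08 and 0.13, and the small nucleolar RNAs spread from -1.48 to 0.81.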

How the data were processed

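A single value for each of 35557 probes on each array was deposited. The deposited values were taken to be log2 from their range (array medians 5.37 to 5.58), and how the authors corrected background or normalized is not stated in the labels or the table. Values were used as deposited, with no filter. GEO's platform annotation gives 21789 probes a single symbol, 1621 several and 12147 none; all 59 members matched RefSeq (GRCm38.p6) by gene ID. The embryo is the replicate.

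Genes were fitted with limma 3.58.1 in R 4.3.3 (lmFit, eBayes) on group means, or with genotype and somite number (midpoint of a range), with Benjamini-Hochberg adjustment over 19938 genes and a threshold of 0.05. Errors are SD over 4 embryos or limma's SE, which is moderated by the spread of all genes, and intervals cover 95%. The script was tested on simulated data. The members, the lists and the tests were chosen with earlier results of these data known.

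The text names the stalk genes, Rpsa, a few genes known from genetics, the 6 members per direction of smallest p for genotype and 5 for the slope, the 3 of lowest and of highest SD, the restricted paralogs, Diamond-Blackfan genes, 2 per direction of each related list, and up to 6 small nucleolar RNAs. The reference gives no strand, so these RNAs were placed by position alone. Same-numbered mutant and WT arrays deviated with correlations of -0.05, 0.04, -0.19 and 0.10. The labels name no pairing and these values cannot exclude one, so embryos were fitted unpaired except with the replicate block.

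Alternatives were quantile normalization, median centring, the mean of all probes, genes of above-median level, eBayes with trend and robust, covariates (somites, Xist), a replicate block, either end of the somite range, no genotype term for the slope, and leaving out arrays. The following were added after seeing the data: rescaled array extremes and members on the standard list only.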

Additional observations from a re-analysis of the deposited data

Results flagged for a closer look

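In 112 sets of 4 values (a named gene within a genotype), 8 had a single array whose distance from the others was unusually large for the set's range by Dixon's criterion. Chance flags about 1 in 20 sets.

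Among mutants, Rpl19 had 12.18 on array 4, against 12.33 to 12.34 on the other mutant arrays, Rpl34 had 9.22 on array 1 (9.53 to 9.59), and Rpl10l had 4.49 on array 4 (5.35 to 5.42). Snora33, inside Rps12, had 7.24 on mutant array 4 (9.21 to 9.41). Among WT embryos, Rpl12 had 7.04 on array 1, against 6.50 to 6.59 on the others, and Rps15a had 8.46 on array 2 (8.69 to 8.73). Eef1d had 8.52 on WT array 2 (8.79 to 8.82), and Rps3a1 had 10.52 on WT array 3 (11.40 to 11.53). These values lie on 5 different arrays, 3 of them on mutant array 4.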

How the results depend on the processing

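Under every alternative 0 members and 0 of all genes passed the test for genotype. The count of members above 0 (47) ran from 34 after quantile normalization to 54 after median centring, from 42 (without WT 3) to 51 (without WT 1) when single arrays were left out, and was 44 of 53 on the standard list. The median ran from 0.03 to 0.14, and from 0.05 to 0.09 without single arrays, and large minus small from 0.00 to 0.05 either way. Members at an unadjusted p under 0.05 numbered 6 with trend and robust moderation (where 955 of all genes had such a p) and at most 1 otherwise. With the replicate block 47 members lay above 0 and 0 passed, and the block changed no call. For the slope, members called stayed at 0. All genes called were 1 with the Xist covariate, 1 with the upper end of the somite range, 5 without the arrays of high Xist, and 0 to 2 without single arrays, against 0. Positive slopes (39) numbered 25 with the Xist covariate, 25 without the arrays of high Xist, 31 after quantile normalization, 52 after median centring, 29 with the replicate block, and 26 to 49 without single arrays. The median slope ran from -0.01 to 0.03 (centring), and members at an unadjusted p under 0.05 numbered up to 4 (trend and robust). Of 915 recomputed genotype differences of named genes 48 changed sign, and of 1023 slopes 123, with 0 called. With 4 arrays per genotype, and bright probes near the top of the scale, differences of the size of limma's moderated SE (median 0.12) cannot be resolved in the fit used here.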
